A study of Mus musculus with 12 samples.

Results

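The Hox genes are homeobox transcription factors that lie in 4 chromosomal clusters, and they were taken here as every row of the gene table whose symbol is Hoxa, Hoxb, Hoxc or Hoxd followed by a number. That rule found 30 of the 28004 genes in the table: 11 Hoxa genes on chromosome 6, 10 Hoxb genes on chromosome 11, 6 Hoxc genes on chromosome 15 and 3 Hoxd genes on chromosome 2 (mouse build GRCm38). All counts and values below are over the 29 of them that are described. The annotation used for positions holds 39 Hox genes, and the 9 without a row (Hoxc6, Hoxc10, Hoxc11, Hoxd1 and Hoxd9 to Hoxd13) were not analysed here.

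The data were bulk RNA sequencing of mouse lung cells sorted for 2 reporters, Acta2-dsRed, named for the smooth muscle actin gene, and Pdgfra-GFP, named for a platelet-derived growth factor receptor gene. Whole lungs were dissociated, and all 12 libraries carry the genotype label Acta2-dsRed+, Pdgfra-GFP+; no treatment or mutation is labelled, and no other sorted population was analysed here. There were 3 libraries at each of 4 stages: embryonic day E17.5 and postnatal days 3, 7 and 10 (P3, P7 and P10). The labels do not say whether the 3 libraries of a stage came from different animals, and the p-values below therefore cover the spread among these libraries, a spread that could be technical.

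Within a cluster, Hox genes are numbered by their order, from 1 at the 3′ end to 13 at the 5′ end, and genes of the same number in different clusters are paralogs of common ancestry. Low-numbered genes are known to be expressed further forward in the body and high-numbered genes further back. In the lung the genes numbered 5 are the best studied: loss of Hoxa5 disturbs airway and alveolar development in mice, and Hoxa5, Hoxb5 and Hoxc5 act together in lung mesenchyme. Hox proteins bind DNA with cofactors of the TALE class, the Pbx and Meis families, and the open or closed state of the clusters is kept by Trithorax and Polycomb proteins.

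Promoter sequences are shown first for Hoxa5, Hoxa6 and Hoxb4, because these are the Hox genes that fell from E17.5 to P3. Each is 300 bases long, from 250 before to 50 after the RefSeq start of the gene, on the gene's own strand and 5′ to 3′. Capitals mark CG dinucleotides, which are dense in many Hox promoters and are a known feature of Polycomb and Trithorax targets. The windows are chr6:52204538-52204837 (minus strand) for Hoxa5, chr6:52208623-52208922 (minus strand) for Hoxa6 and chr11:96318017-96318316 (plus strand) for Hoxb4 (RefSeq, GRCm38.p6).
Hoxa5: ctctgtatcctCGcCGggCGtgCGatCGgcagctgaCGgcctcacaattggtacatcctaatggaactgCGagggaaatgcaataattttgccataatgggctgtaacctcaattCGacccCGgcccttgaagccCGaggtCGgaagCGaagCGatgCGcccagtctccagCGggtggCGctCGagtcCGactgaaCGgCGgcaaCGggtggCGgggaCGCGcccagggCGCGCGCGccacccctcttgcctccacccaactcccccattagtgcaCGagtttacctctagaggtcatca
Hoxa6: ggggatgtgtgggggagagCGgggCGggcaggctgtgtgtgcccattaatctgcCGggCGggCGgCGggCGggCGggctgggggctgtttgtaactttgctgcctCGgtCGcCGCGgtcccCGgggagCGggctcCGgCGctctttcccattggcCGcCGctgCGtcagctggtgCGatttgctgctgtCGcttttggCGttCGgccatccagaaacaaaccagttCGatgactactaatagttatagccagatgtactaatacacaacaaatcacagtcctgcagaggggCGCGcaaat
Hoxb4: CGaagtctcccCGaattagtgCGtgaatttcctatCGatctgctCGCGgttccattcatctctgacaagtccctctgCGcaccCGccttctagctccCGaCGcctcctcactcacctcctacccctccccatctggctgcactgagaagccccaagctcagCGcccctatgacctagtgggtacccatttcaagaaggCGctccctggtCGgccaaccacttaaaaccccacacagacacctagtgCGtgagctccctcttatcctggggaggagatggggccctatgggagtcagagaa
Hoxa5 held 29 CG dinucleotides, Hoxa6 26 and Hoxb4 14, and the median over all 32851 promoters of the RefSeq table was 7. Among the Hox promoters counted here the range was 9 to 29 in 5 expressed genes. It was 6 to 45 in 6 genes below the expression rule (defined below), so a high count was not particular to the genes that fell.

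The second set holds those Hox promoters, of the 11 counted below, that had a match to the letters TGATNNAT, so the match is no finding about this set. They are those of Hoxa2 and Hoxb8, which were expressed, and of Hoxb1, which lies beside the expressed Hoxb2 but was near 0. Capitals here mark matches, on either strand, to TGATNNAT, letters bound by Hox and Pbx proteins together, and to TGACAG, letters bound by Meis proteins. The windows are chr6:52164782-52165081 (minus strand) for Hoxa2, chr11:96281655-96281954 (plus strand) for Hoxb8 and chr11:96365508-96365807 (plus strand) for Hoxb1.
Hoxa2: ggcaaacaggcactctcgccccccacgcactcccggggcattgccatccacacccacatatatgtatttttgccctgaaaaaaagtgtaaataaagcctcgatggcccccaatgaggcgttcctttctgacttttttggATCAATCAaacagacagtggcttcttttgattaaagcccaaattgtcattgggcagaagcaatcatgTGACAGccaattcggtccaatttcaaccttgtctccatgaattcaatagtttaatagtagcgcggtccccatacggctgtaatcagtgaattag
Hoxb8: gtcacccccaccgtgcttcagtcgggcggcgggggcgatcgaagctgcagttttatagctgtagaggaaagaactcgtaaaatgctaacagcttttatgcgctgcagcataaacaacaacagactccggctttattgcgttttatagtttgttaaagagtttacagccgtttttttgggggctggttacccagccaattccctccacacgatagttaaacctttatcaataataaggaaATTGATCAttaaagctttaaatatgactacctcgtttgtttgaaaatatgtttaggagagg
Hoxb1: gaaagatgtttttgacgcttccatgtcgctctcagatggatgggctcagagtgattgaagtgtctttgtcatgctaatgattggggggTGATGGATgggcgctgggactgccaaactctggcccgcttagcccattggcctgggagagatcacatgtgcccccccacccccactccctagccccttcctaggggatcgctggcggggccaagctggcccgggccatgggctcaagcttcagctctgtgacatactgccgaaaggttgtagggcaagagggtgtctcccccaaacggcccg
Of all 32851 promoters, 8.85% held a TGATNNAT match and 19.2% a TGACAG match. A RefSeq promoter within 100 bases of the annotated gene start was found for 11 of the 29 Hox genes. TGATNNAT was matched in 2 of 5 expressed genes (Hoxa2 and Hoxb8) and in 1 of 6 genes below the expression rule (Hoxb1). TGACAG was matched in Hoxa2 alone, and the windows of Hoxa5, Hoxa6 and Hoxb4 held neither. A match is a description of letters, not a binding site.

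The libraries held between 13328623 and 18740591 estimated counts. Levels are given as CPM, the count scaled to a library of fixed size after normalisation, and since the deposited values appear already divided by transcript length, CPM can be compared between genes. The small structural RNAs Rn7s1, Rn7s2 and Rn7sk together took 20.0% to 46.3% of the summed values of a library, and normalisation factors ran from 0.5886 (E17.5 replicate 2) to 1.478 (P10 replicate 3). Acta2 stood at 492 ± 182, 1025 ± 46.4, 822 ± 131 and 487 ± 166 CPM over the 4 stages in order, and Pdgfra at 346 ± 71.9, 179 ± 24.1, 191 ± 25.5 and 221 ± 38.0 (SD, n = 3), so both sorted labels were present at every stage. Both genes also moved across birth, in opposite directions. From E17.5 to P3 the log2 fold change was 1.06 for Acta2 (adjusted p = 0.0183, edgeR's quasi-likelihood test, kept in 18 of 21 alternative settings). For Pdgfra it was -0.95 (adjusted p = 0.0043, same test, kept in 21 of 21). Markers of other cells moved with stage too. The summed level of 6 pericyte and vascular smooth muscle markers spanned 152 to 249 CPM in the E17.5 libraries, 48.9 to 57.3 in the P3 libraries, 56.1 to 72.7 in the P7 libraries and 89.8 to 130 in the P10 libraries, and 6 erythroid markers went from 117 to 179 CPM at E17.5 to 12.5 to 53.6 CPM after birth. The 6 alveolar fibroblast markers summed to 1323 CPM in E17.5 replicate 1 against 302 and 223 in the other E17.5 libraries. In bulk samples fewer cells of a type and less RNA per cell cannot be told apart.

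Hox expression lay in 2 clusters and in a contiguous stretch of each. A gene was called expressed when it reached 1 CPM in all 3 libraries of at least 1 stage. By that rule 13 of 29 Hox genes were expressed: Hoxa2 to Hoxa7 and Hoxb2 to Hoxb8, each without a gap. The other 16 were above 0 in at least 1 library, but none passed 7 estimated counts or 0.409 CPM in any library, and 140 of their 192 values were 0. The highest total of such a gene over the 12 libraries was 23 estimated counts (Hoxa9), and the lowest of an expressed gene was 680 (Hoxa6). Thresholds of 0.5 and 2 CPM gave the same 13.

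**Figure D1:**
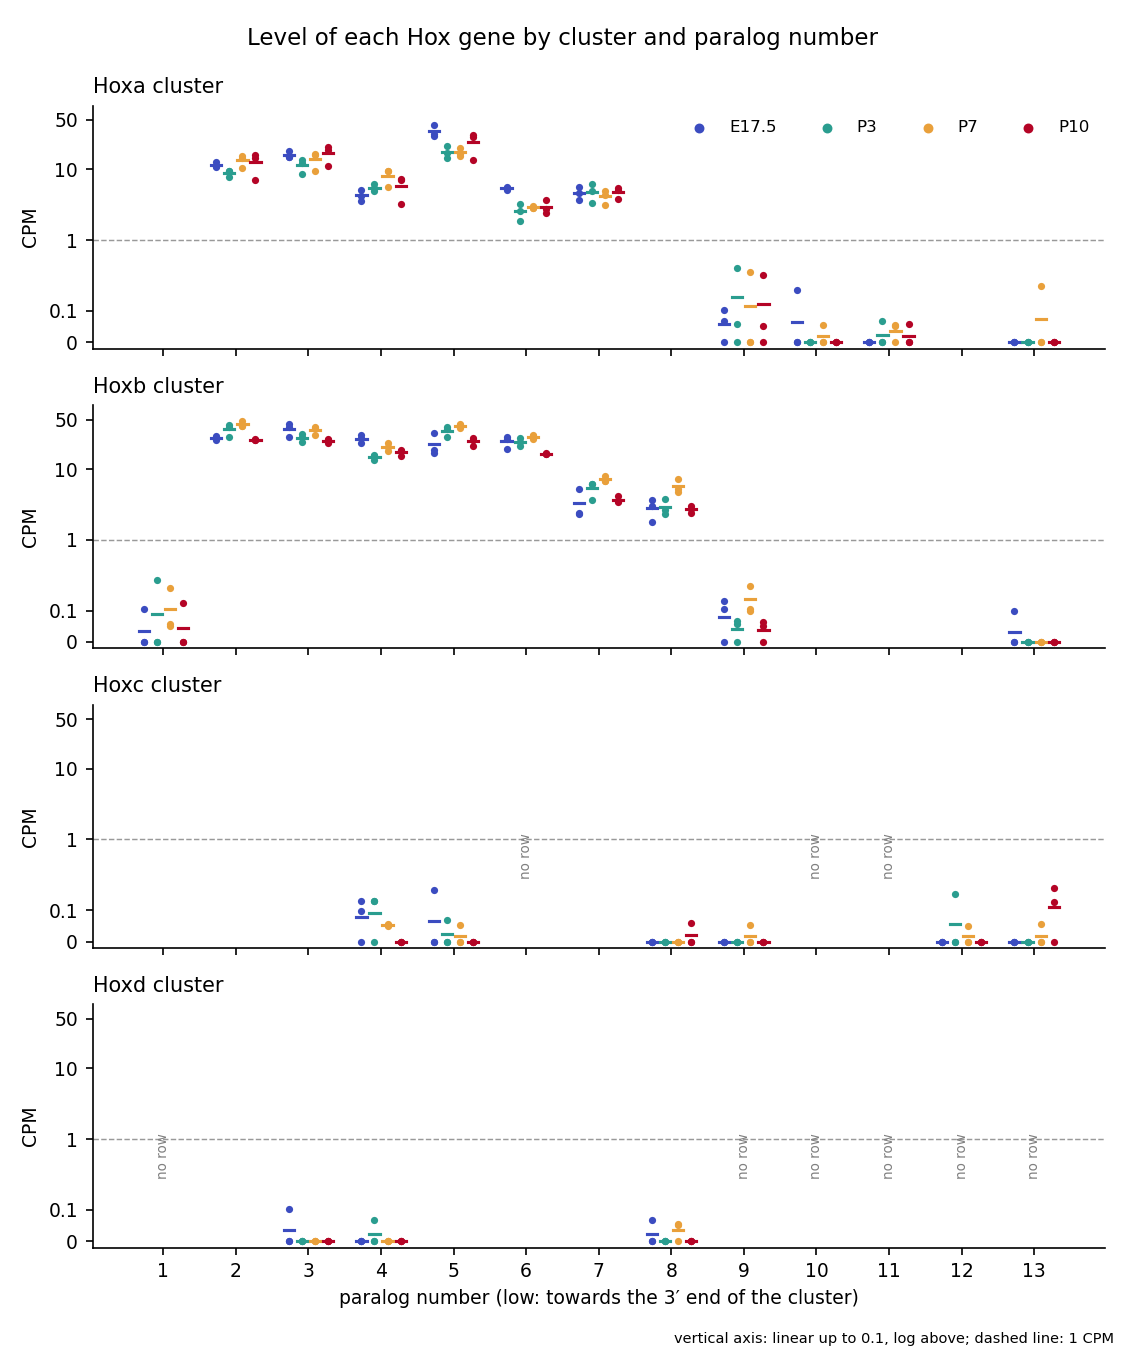
Level of each Hox gene in each library by cluster and paralog number (points, libraries; short lines, means of 3; vertical axis in CPM, linear up to 0.1 and logarithmic above; dashed line, 1 CPM; "no row" marks annotated genes not analysed here). The 13 expressed genes form the runs Hoxa2 to Hoxa7 and Hoxb2 to Hoxb8, and every point of the other 16 lies at or under 0.409 CPM.

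The boundaries were abrupt. Hoxa7 (chromosome 6, 52214491 to 52221854, minus strand) had a mean of 4.61 CPM over the 12 libraries, and its 5′ neighbour Hoxa9 (52223100 to 52231089) had 0.113 CPM. Hoxb8 (chromosome 11, 96281905 to 96285315, plus strand) had 3.54 CPM and its 5′ neighbour Hoxb9 (96271457 to 96276595) 0.0759 CPM. At the other end of that cluster Hoxb2 (96350525 to 96354012) had the highest 12-library mean of any Hox gene, 33.2 CPM (at E17.5 Hoxb3 and Hoxa5 were higher, with 36.5 and 34.7 against 27.7 CPM), while Hoxb1 (96365752 to 96368256), a hindbrain gene, had 0.0684 CPM. Hoxc and Hoxd genes summed to at most 0.292 and 0.104 CPM in any library, so in each library at least 99.65% of the summed Hox level came from the 13 expressed genes.

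Among those 13, levels differed from gene to gene. In the Hoxb cluster the genes numbered 2 to 6 had means of 33.2 (Hoxb2), 31.3 (Hoxb3), 19.9 (Hoxb4), 30.9 (Hoxb5) and 23.4 CPM (Hoxb6), and the level dropped to 4.88 at Hoxb7 and 3.54 at Hoxb8. In the Hoxa cluster the level was 11.6 CPM at Hoxa2, 14.6 at Hoxa3, 5.97 at Hoxa4, 23.5 at Hoxa5, 3.47 at Hoxa6 and 4.61 at Hoxa7. Hoxa5 was above its neighbours Hoxa4 and Hoxa6 in all 12 libraries. It was also above Hoxa3 in each, with means of 34.7 and 15.9 CPM at E17.5, but by little in single later libraries such as P7 replicate 2 (16.6 and 16.1 CPM). Hoxb2, Hoxb3 and Hoxb5 had overlapping ranges over the libraries (25.4 to 47.0, 23.0 to 42.7 and 17.1 to 43.2 CPM), and so did Hoxa5 and Hoxb6 (13.5 to 42.2 and 16.3 to 29.8 CPM). By their 12-library means the expressed genes ranked from the 37.0th (Hoxa6) to the 82.5th percentile (Hoxb2) of the 16827 tested genes.

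Paralog number 5 had the highest summed level by stage means, with 57.3, 52.5, 58.7 and 49.2 CPM from E17.5 to P10, and its stage ranges overlapped. It was not highest in every library. Number 3 stood above it in E17.5 replicate 2 (57.5 against 47.4 CPM) and P10 replicate 1 (38.3 against 34.6 CPM). In P7 replicate 2 numbers 2 and 3 did (55.8 and 55.2 against 54.8 CPM). Inside the sum of number 5 the order of the means switched: Hoxa5 was higher at E17.5 and Hoxb5 at P3 and P7. Hoxb5 itself did not pass edgeR's test in any of the 4 comparisons between stages given below. Hoxa5 (minus strand of chromosome 6, 52201754 to 52204587) stood at 42.2, 30.1 and 31.8 CPM in the E17.5 libraries, 17.0, 21.4 and 14.6 in those of P3, 15.7, 16.6 and 20.1 in those of P7, and 13.5, 29.1 and 30.2 in those of P10. All E17.5 libraries lay above all P3 and P7 libraries, and at P10 replicate 1 lay apart from the others on the low side. Hoxb5 (plus strand of chromosome 11, 96303336 to 96306121) stood at 18.3, 17.1 and 32.2 CPM in the E17.5 libraries, 37.4, 39.0 and 28.0 in those of P3, 42.2, 38.3 and 43.2 in those of P7, and 21.1, 27.6 and 26.0 in those of P10. Its P7 libraries lay above all P10 libraries, while E17.5 replicate 3 reached into the P3 range. Hoxc5 was 0 in 9 libraries and at most 0.195 CPM in the others.

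The ratio of Hoxb5 to Hoxa5 within a library does not depend on how libraries were scaled. It was 0.435, 0.57 and 1.01 in the E17.5 libraries, 2.2, 1.83 and 1.92 in those of P3, 2.69, 2.31 and 2.15 in those of P7, and 1.57, 0.947 and 0.862 in those of P10. The E17.5 and P3 values did not overlap, nor did those of P7 and P10, whereas P10 and E17.5 overlapped. These ratios were chosen with the data known and are given without a test.

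Across birth, from E17.5 to P3, 4 of the 13 tested Hox genes passed at an adjusted p under 0.05 (edgeR's quasi-likelihood test), beside 25.1% of all tested genes, a share close to that of the Hox genes. Hoxb4, Hoxa6 and Hoxa5 fell and Hoxb2 rose. Over all 16827 tested genes 2024 passed as lower and 2201 as higher. The median log2 fold change was -0.02 over the 13 Hox genes (7 negative, 6 positive) and -0.05 over all tested genes. Without P3 replicate 1 the count of called Hox genes was 2, and 3170 of all 17776 genes tested in that fit were called. Over the same interval 4 of 6 pericyte and vascular smooth muscle markers and 4 of 5 tested erythroid markers fell. Of the airway epithelial markers 2 of 3 tested rose (summed level 14.9 to 24.7 CPM at E17.5 and 84.8 to 135 at P3), and of the immune markers 3 of 6 (9.93 to 11.6 and 19.2 to 24.3 CPM). The adventitial fibroblast markers summed to 57.2 to 153 and 291 to 375 CPM, with 1 of 5 higher and 1 lower. By stage means Cd34 made up most of that rise (24.2 to 263 CPM), while Dcn went from 16.0 to 3.44 CPM. The airway sum was carried by Tppp3 (12.6 to 78.9 CPM) and Scgb1a1 (1.74 to 29.7 CPM), while Scgb3a2 went from 3.91 to 2.94 CPM. The part of other cell types in the Hox values was not tested.

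Hoxb4, which is known from blood stem cell biology, lies on chromosome 11 (96318267 to 96321638, plus strand). It stood at 23.2, 27.5 and 30.2 CPM in the E17.5 libraries, 13.4, 15.7 and 15.1 in those of P3, 18.0, 23.1 and 20.6 in those of P7, and 15.3, 18.2 and 18.5 in those of P10. The E17.5 values were the highest and did not overlap with those of P3 or P10. From E17.5 to P3 the log2 fold change was -0.87 (SE 0.13, edgeR adjusted p = 0.00113), and the call was kept in 21 of 21 alternatives, which included each library left out.

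Hoxa6, the 5′ neighbour of Hoxa5 (52206288 to 52208722), stood at 5.71, 5.16 and 5.37 CPM in the E17.5 libraries, 3.21, 2.56 and 1.89 in those of P3, 2.89, 3.04 and 2.89 in those of P7, and 2.43, 3.69 and 2.8 in those of P10. Every postnatal library was below every E17.5 library. Across birth its log2 fold change was -1.08 (SE 0.22, edgeR adjusted p = 0.00556), and the call was again kept in 21 of 21 alternatives. Hoxa5 also fell, by 0.97 on the log2 scale (SE 0.28, edgeR adjusted p = 0.0269). Its call did not survive the loss of E17.5 replicate 1 (estimate -0.81, adjusted p = 0.0884), of P3 replicate 1 (-0.94, adjusted p = 0.0824) or of P3 replicate 3 (-0.85, adjusted p = 0.0916). E17.5 replicate 1, the library highest in Hoxa5, was also the one highest in alveolar fibroblast markers; the part of those cells in the Hoxa5 value was not tested.

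Hoxb2 stood at 25.6, 27.8 and 29.6 CPM in the E17.5 libraries, 38.8, 42.3 and 28.7 in those of P3, 41.0, 40.3 and 47.0 in those of P7, and 25.5, 25.4 and 26.9 in those of P10. P3 replicate 3 lay inside the E17.5 range. The log2 fold change from E17.5 to P3 was 0.40 (SE 0.13, edgeR adjusted p = 0.0498), and only 6 of 21 alternatives kept it: the call was lost when any library other than P3 replicate 3 was left out (adjusted p up to 0.156). Hoxb5 had an estimate of 0.62 (SE 0.23, adjusted p = 0.0688) and Hoxb7 of 0.68 (SE 0.31, adjusted p = 0.143). Hoxb5 passed with DESeq2 and without E17.5 replicate 3, the library in which both stood higher than in the other E17.5 libraries; without it Hoxb7 passed too, with 1.19 (adjusted p = 0.00831).

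So within the Hoxb cluster Hoxb4 moved down between Hoxb3 (-0.40, SE 0.16, adjusted p = 0.103) and Hoxb5, whose estimate was positive. The ratio of Hoxb5 to Hoxb4 in the same library was 0.789, 0.622 and 1.07 in the E17.5 libraries, 2.79, 2.49 and 1.85 in those of P3, 2.34, 1.66 and 2.1 in those of P7, and 1.38, 1.51 and 1.41 in those of P10. In the Hoxa cluster the ratio of Hoxa5 to Hoxa4 was 8.28, 7.19 and 8.97 in the E17.5 libraries, 3.07, 3.47 and 2.96 in those of P3, 2.81, 1.75 and 2.12 in those of P7, and 4.13, 3.95 and 4.27 in those of P10. For both ratios the 3 libraries of E17.5 stood apart from all 9 postnatal libraries. Hoxa4, unlike Hoxa3 and Hoxa5 on either side, had a positive estimate from E17.5 to P3 (0.37, SE 0.31, adjusted p = 0.425), and the ratio of Hoxa4 to Hoxa3 had means of 0.268, 0.488, 0.583 and 0.341 in stage order.

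**Figure D2:**
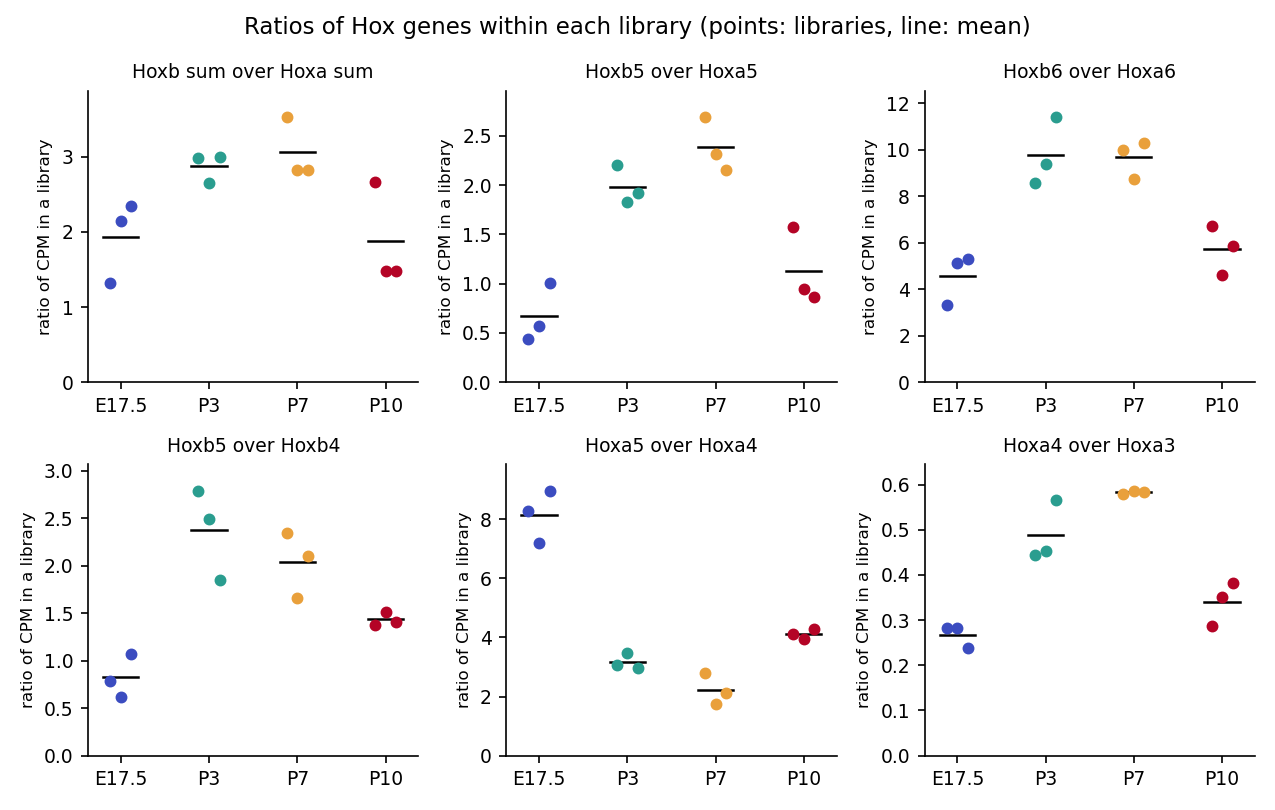
Ratios between Hox genes in the same library, by stage (points, 3 libraries per stage; lines, means; vertical axes are ratios of CPM and start at 0). Hoxb5 over Hoxa5, Hoxb5 over Hoxb4 and Hoxa4 over Hoxa3 were lowest at E17.5 and Hoxa5 over Hoxa4 was highest there, with means of 0.672, 0.826, 0.268 and 8.15.

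From P3 to P7 no Hox gene passed edgeR's quasi-likelihood test, and 1 gene of all tested did (0.00594%). An unadjusted p under 0.05 was reached by 4 of the 13, all with higher values at P7 (Hoxb4, Hoxb8, Hoxb3 and Hoxa2), where 6.85% of all tested genes reached it in that direction. DESeq2 called 2 of them, Hoxb4 and Hoxb8, and 4.34% of all tested genes; limma-voom called 0 of the 13. The largest estimate was 0.96 for Hoxb8 (SE 0.29, adjusted p = 0.201). Estimates of all 7 Hoxb genes were positive (0.22 to 0.96), as were those of 4 of 6 Hoxa genes. The summed Hoxb level was 158, 158 and 124 CPM at P3 and 172, 182 and 192 CPM at P7, with no overlap. The summed alveolar fibroblast markers were 307 to 430 CPM at P3 and 48.4 to 111 CPM at P7, also without overlap and with 0 of 6 passing edgeR's test, and their part in the Hoxb level was not tested.

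From P7 to P10 2 Hox genes passed, Hoxb6 and Hoxb2, and both fell. Of all tested genes 2.25% passed as lower and 1.40% as higher. The count of Hox genes was 0 without any single P7 library and without P10 replicate 2 or 3, and 4 without E17.5 replicate 3, a library of neither stage that entered the same model. Calls over all tested genes moved too, from 613 with all libraries to 55, 41 and 39 without P7 replicates 1, 2 and 3. They numbered 22 and 25 without P10 replicates 2 and 3, and 753 without E17.5 replicate 3. All 7 Hoxb estimates were negative, from -1.08 to -0.25 with a median of -0.73, whereas 4 of 6 Hoxa estimates were positive (median 0.11), beside a median of 0.01 over all tested genes. The Hoxb genes share a cluster and these libraries, so the 7 estimates are not independent, and the difference between the clusters was not tested.

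Hoxb6 (plus strand of chromosome 11, 96292476 to 96301569) stood at 18.9, 26.4 and 28.4 CPM in the E17.5 libraries, 27.4, 24.0 and 21.5 in those of P3, 28.9, 26.5 and 29.8 in those of P7, and 16.3, 17.0 and 16.4 in those of P10. The P10 libraries lay within 1 CPM of each other and below all 9 others. From P7 to P10 the log2 fold change was -0.78 (SE 0.15, edgeR adjusted p = 0.0235). For Hoxb2 it was -0.72 (SE 0.13, edgeR adjusted p = 0.0233), and its P10 libraries lay below all P3 and P7 libraries. Both calls were kept in 15 of 21 alternatives. They ended without any single P7 library, without P10 replicate 2 and without P10 replicate 3, with adjusted p between 0.0651 and 0.0972 and log2 fold changes between -0.81 and -0.64, and with the replicate number as a block (adjusted p = 0.0512 for Hoxb2 and 0.0518 for Hoxb6).

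In edgeR's test from P7 to P10, 3406 of all 16827 tested genes had an unadjusted p under 0.05 in either direction. Another 4 Hoxb genes were among them, with lower values at P10, but did not pass after adjustment. Their log2 estimates were -1.08 for Hoxb8 (SE 0.29, adjusted p = 0.0698), -0.96 for Hoxb7 (SE 0.31, adjusted p = 0.115), -0.73 for Hoxb5 (SE 0.23, adjusted p = 0.104) and -0.51 for Hoxb3 (SE 0.16, adjusted p = 0.118). Hoxb7 had means of 3.29, 5.32, 7.21 and 3.7 CPM over the stages in order and Hoxb8 of 2.81, 2.93, 5.72 and 2.7, so both were highest at P7. DESeq2 called these 4 along with Hoxb2 and Hoxb6, and it called 10.9% of all tested genes. On the Hoxa side P10 replicate 1 differed from its group: its Hoxa genes summed to 41.6 CPM against 81.5 and 79.6 in the other P10 libraries, while its Hoxb sum of 111 CPM was close to their 121 and 118. That library was also the lowest of the 3 in endothelial (13.1 against 65.0 and 62.8 CPM) and airway epithelial markers (70.8 against 205 and 251 CPM). The part of those cells in its Hoxa level was not tested.

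**Figure D3:**
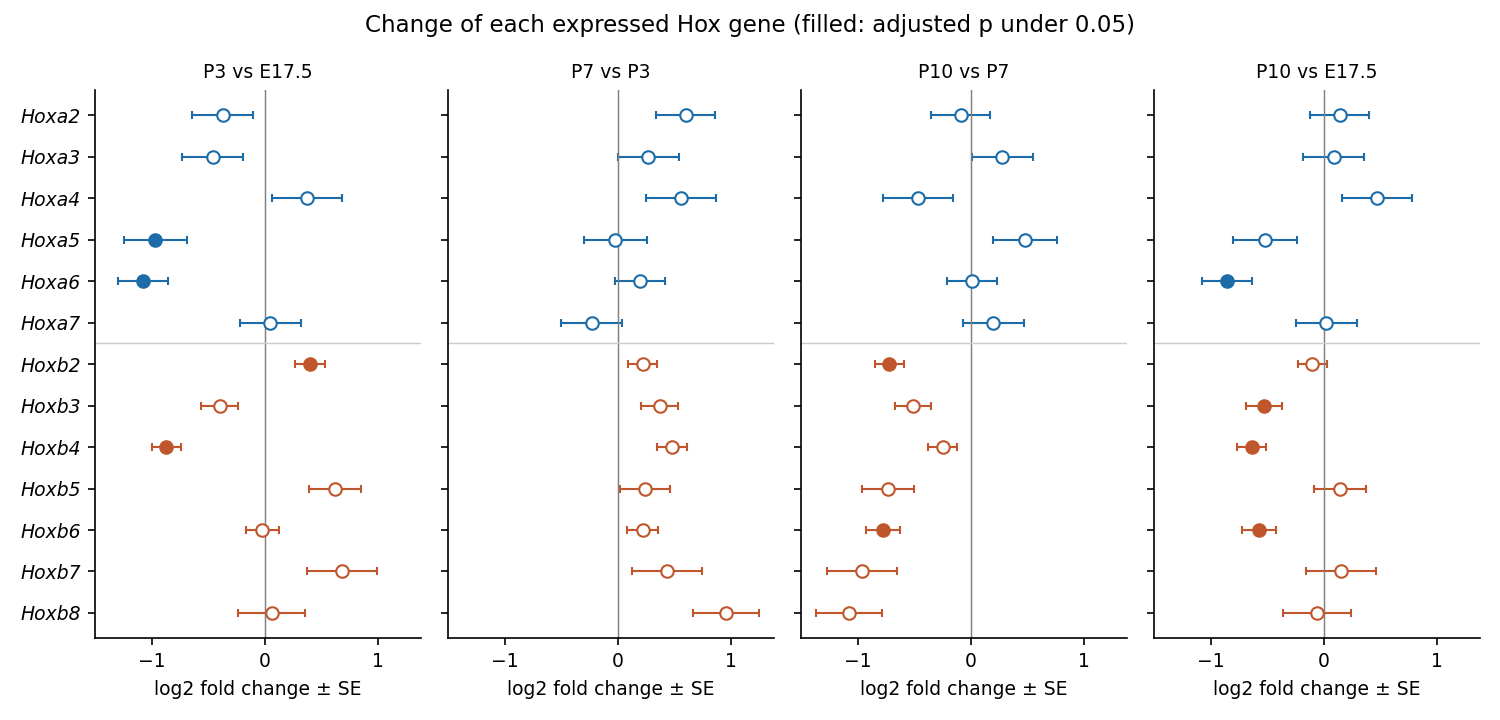
Log2 fold change with its SE for each expressed Hox gene in the 4 comparisons (blue, Hoxa; orange, Hoxb; filled, adjusted p under 0.05 in edgeR's quasi-likelihood test). Hoxb4, Hoxa5 and Hoxa6 lie left of 0 from E17.5 to P3, and all 7 Hoxb genes lie left of 0 from P7 to P10.

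Over the whole interval, from E17.5 to P10, 4 Hox genes were lower. The comparison shares its E17.5 and P10 libraries with those above. Of all tested genes 9.50% passed as lower and 8.79% as higher. The count of Hox genes was 2 without E17.5 replicate 2 or 3 or P10 replicate 2, and 1 without P10 replicate 1 or 3. Over all tested genes these fits called 2353, 2898, 2144, 2761 and 2016 in that order, beside 3077 with all libraries. Hoxb4 had a log2 fold change of -0.64 (SE 0.13, edgeR adjusted p = 0.0077, kept in 21 of 21 alternatives) and Hoxa6 of -0.86 (SE 0.22, edgeR adjusted p = 0.021, kept in 17 of 21). Hoxb6 had -0.57 (SE 0.15, edgeR adjusted p = 0.0213, kept in 15 of 21). Hoxb3 (plus strand of chromosome 11, 96323326 to 96347930) stood at 28.1, 42.7 and 38.7 CPM in the E17.5 libraries, 31.0, 28.0 and 23.8 in those of P3, 30.5, 39.0 and 38.0 in those of P7, and 27.0, 25.8 and 23.0 in those of P10, so that all P10 libraries were below all E17.5 libraries. Its log2 fold change was -0.53 (SE 0.16, edgeR adjusted p = 0.0478), a call that 7 of 21 alternatives kept and that the loss of either E17.5 replicate 2 or 3, or of any P10 library, ended. Hoxa6 lost its call without E17.5 replicate 1, P10 replicate 1 or P10 replicate 3, and Hoxb6 lost it without E17.5 replicate 2 or 3 or any P10 library (adjusted p up to 0.0745 and 0.072).

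Tested over all 4 stages at once, 8 of the 13 differed (Hoxa5, Hoxa6, Hoxb2, Hoxb4, Hoxb5, Hoxb6, Hoxb7 and Hoxb8), beside 32.1% of all tested genes. The count was 4 without E17.5 replicate 2, without any single P7 library and without P10 replicate 2 or 3, 5 without P3 replicate 1 or 2, and 9 without P10 replicate 1. The range between stages was modest: the highest stage mean over the lowest was 1.17 for Hoxa7, the flattest, and 2.19 for Hoxb7, with a median of 1.83, against a median of 1.68 over all tested genes. Hoxa7 had means of 4.68, 4.86, 4.14 and 4.77 CPM in stage order. Hoxa2, Hoxa3 and Hoxa4 did not pass in any comparison. Hoxa2 ranged from 7.18 to 15.9 CPM, Hoxa3 from 8.71 to 21.0 and Hoxa4 from 3.27 to 9.47.

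**Figure D4:**
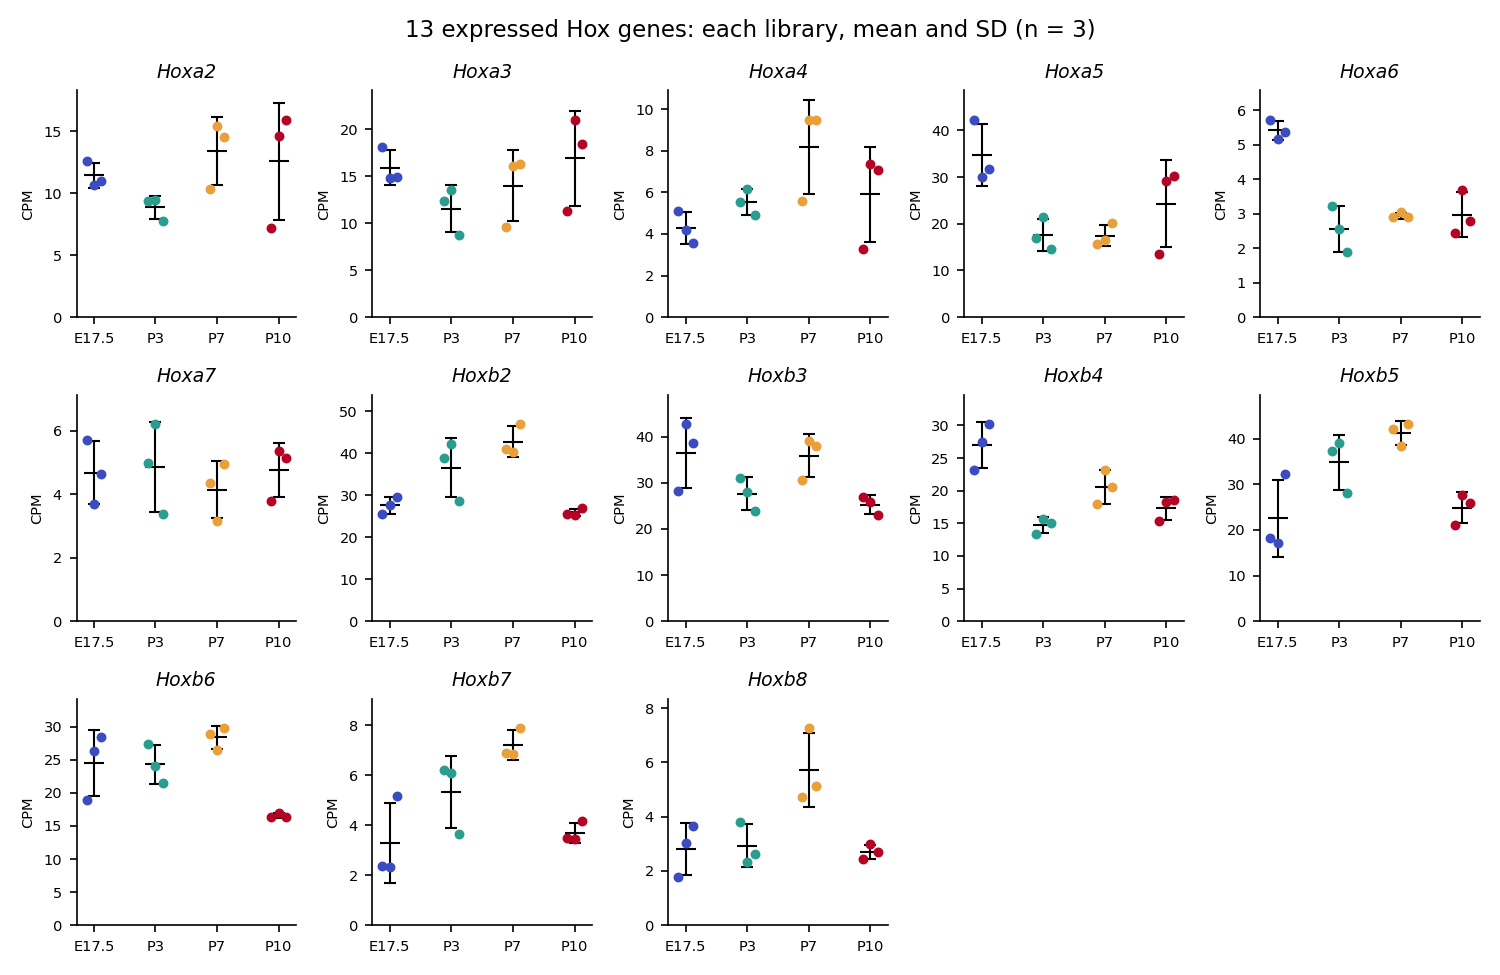
CPM of the 13 expressed Hox genes by stage (points, 3 libraries; bars, mean and SD; each axis starts at 0 and has its own scale). Hoxb4 and Hoxa6 are highest at E17.5, Hoxb5, Hoxb7 and Hoxb8 have their highest mean at P7, and the P10 values of Hoxb6 lie at 16.3 to 17.0 CPM.

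The balance between the clusters moved with stage. Hoxb genes made up 56.9%, 68.0% and 70.2% of the summed Hox level in the E17.5 libraries, 74.8%, 72.6% and 74.9% at P3, 77.9%, 73.9% and 73.7% at P7, and 72.8%, 59.6% and 59.6% at P10. P3 lay above E17.5 and P10 below P7 without overlap, and the lowest E17.5 value and the highest P10 value were both from a replicate 1 library, those set apart above by markers of other cells. The summed Hoxa level had means of 76.5, 51.2, 60.3 and 67.5 CPM in stage order, and the summed Hoxb level of 145, 146, 182 and 116 CPM.

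Other transcripts lie inside the clusters, and some share exon sequence with Hox genes on the opposite strand. The library kit keeps strand, but whether the authors' counting used it is not given in the sources used here, so overlapping genes are uncertain. Hoxb3os covers 53% of the exon bases of Hoxb3 and 27% of those of Hoxb2, Hoxaas3 20% of Hoxa7 and Gm29430 16% of Hoxa4. Gm28308 covers 15% of Hoxa2 and 8% of Hoxa3 on the same strand. On the opposite strand of Hoxa3, Hoxaas2 covers 8% of its exon bases, Gm29430 7%, and Hoxaas3 and 5730596B20Rik 5% each. Gm29430 thus overlaps both genes of the ratio of Hoxa4 to Hoxa3. Hoxb5os covers 4% of Hoxb5. Hoxa5, Hoxa6, Hoxb4, Hoxb6, Hoxb7 and Hoxb8 share none. Of 15 such transcripts with a row, 11 were tested. In P10 against E17.5, where 9.50% of all tested genes passed as lower, Hoxb5os alone passed. It stood at 2.99, 3.21 and 5.69 CPM in the E17.5 libraries, 3.34, 2.51 and 4.05 in those of P3, 2.29, 2.7 and 2.95 in those of P7, and 1.66, 1.23 and 0.864 in those of P10 (log2 fold change -1.67, SE 0.33, edgeR adjusted p = 0.00583), while Hoxb5 itself had 0.14 in the same comparison (SE 0.23, adjusted p = 0.726). In the other comparisons edgeR called 0 of the 11 (DESeq2 1 and limma-voom 0 from P7 to P10, both 0 before). An unadjusted p under 0.05 in edgeR's test was reached by 0 from E17.5 to P3, 1 from P3 to P7 and 3 from P7 to P10. Over all 16827 tested genes 6228, 2399 and 3406 reached it. Hoxb3os had means of 3.38, 4.05, 5.48 and 3.42 CPM, below Hoxb3 and Hoxb2 at every stage. Hotairm1, a long non-coding RNA of the Hoxa cluster, had means of 15.3, 17.2, 16.2 and 15.8 CPM.

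Of 8 TALE cofactors tested, 3 fell from E17.5 to P3, where 2024 of all 16827 tested genes fell and 2201 rose. Meis1 had 82.0 ± 3.36 CPM before and 44.2 ± 7.55 CPM after birth (SD, n = 3), a log2 fold change of -0.89 with SE 0.12 (edgeR adjusted p = 0.000547). Meis2 went from 11.9 to 6.1 CPM. Pbx3 went from 32.1 to 25.4 CPM with an adjusted p of 0.0499 that 3 of 21 alternatives kept. From P3 to P7 and from P7 to P10 edgeR, DESeq2 and limma-voom each called 0. In edgeR's test 2 and 3 had an unadjusted p under 0.05, beside 2399 and 3406 of all 16827 tested genes. In P10 against E17.5, where 9.50% of all tested genes passed as lower, the lower genes numbered 4: Meis1 (-0.62), Meis2 (-1.09), Pbx3 (-0.74) and Pbx2 (-0.64, lost without P10 replicate 2). The median log2 fold change of the 8 was -0.28 in P3 against E17.5 and -0.63 in P10 against E17.5, beside -0.05 and 0.0 over all tested genes. Meis3, Pknox1 and Pknox2 did not pass in any comparison, and neither did Pbx4, which had means of 0.829, 1.97, 1.33 and 0.508 CPM in stage order.

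**Figure D5:**
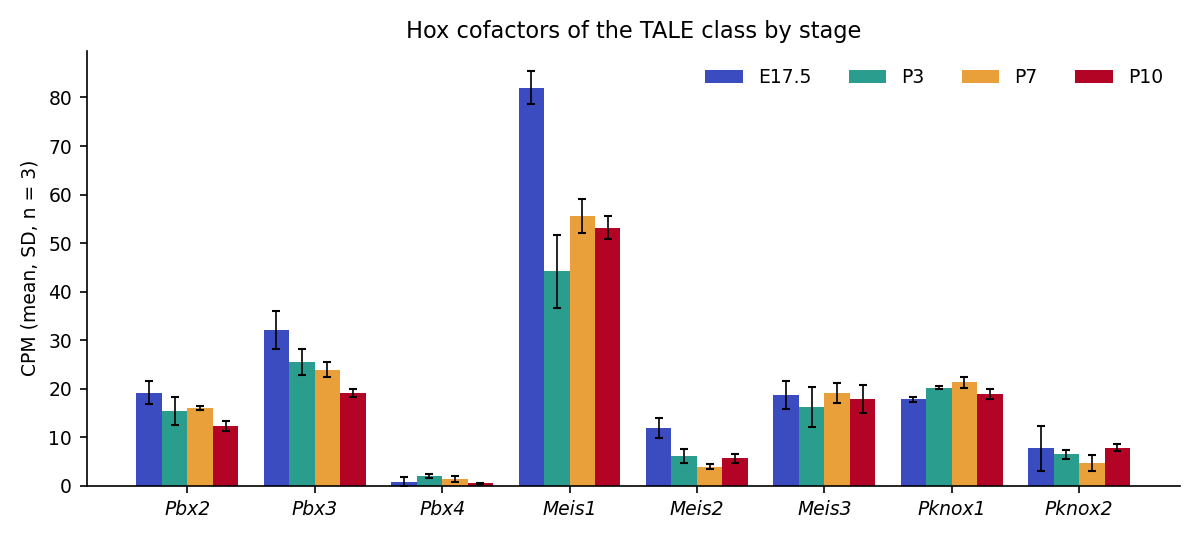
Mean CPM of 8 TALE cofactors by stage (bars, means of 3 libraries; error bars, SD; axis starts at 0). Meis1 was the highest of them, with an E17.5 mean of 82.0 CPM, and was lower at the 3 postnatal stages.

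Trithorax and Polycomb genes, whose products hold Hox clusters open or closed, moved in both directions. Of 23 tested, 2 rose and 3 fell from E17.5 to P3, near the share of 25.1% over all tested genes. In edgeR's test 13 had an unadjusted p under 0.05, beside 6228 of all 16827 tested genes. DESeq2 called 9 (30.4% of all tested genes) and limma-voom 5 (3867 of all 16827). Wdr5, a subunit of the Trithorax-type histone methyltransferase complexes, went from 10.4 to 15.4 CPM (0.56, adjusted p = 0.0132). Bmi1, a Polycomb subunit, went from 61.6 to 91.0 CPM (0.56, kept in 17 of 21 alternatives), while Kmt2a, the histone methyltransferase known to maintain Hox expression, went from 41.3 to 28.4 CPM (-0.54, kept in 13 of 21). Phc3 went from 23.8 to 15.4 CPM (-0.63, lost without E17.5 replicate 3). From P3 to P7 and from P7 to P10 edgeR called 0, with an unadjusted p under 0.05 for 3 and 6 (DESeq2 called 0 and 3, limma-voom 0 and 2). Over all 16827 tested genes 2399 and 3406 had such a p, DESeq2 called 730 and 1841, and limma-voom 18 and 854. In P10 against E17.5 1 was higher, Cbx7 (0.865 ± 0.475 to 2.7 ± 0.797 CPM, adjusted p = 0.0256, lost without E17.5 replicate 3 or P10 replicate 2 or 3), and 2 were lower, Men1 (23.2 to 16.1 CPM, kept in 15 of 21 alternatives) and Pcgf2 (34.6 to 28.2 CPM, kept in 11). In that comparison 8.79% of all tested genes passed as higher and 9.50% as lower. The list's median was -0.05 in P3 against E17.5 and 0.03 in P10 against E17.5.

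Retinoic acid is a known inducer of the low-numbered Hox genes, and of 14 tested genes of its pathway 7 fell and 2 rose from E17.5 to P3, beside 2024 lower and 2201 higher of all 16827 tested genes. Rara, a retinoic acid receptor, went from 53.9 to 31.8 CPM (-0.76, adjusted p = 0.00798) and its partner Rxrb from 27.5 to 18.4 CPM. Aldh1a1, an enzyme that makes retinoic acid, went from 63.9 ± 18.3 to 27.2 ± 6.1 CPM and on to 8.03 ± 1.77 at P10. Aldh1a2, which makes retinoic acid too, rose from 0.606 ± 0.331 to 3.77 ± 0.731 CPM (2.59, adjusted p = 0.011) and stood at 2.53 ± 2.23 CPM at P10, where its call against E17.5 (2.02, adjusted p = 0.0412) was kept in 8 of 21 alternatives and the estimate was 1.05 without P10 replicate 1 (adjusted p = 0.16). Dhrs3, a retinaldehyde reductase, went from 9.52 to 2.04 CPM, whereas Rdh10, a retinol dehydrogenase, went from 10.9 to 24.8 CPM (1.19, kept in 17 of 21 alternatives and lost without E17.5 replicate 1 or 2 or without P3 replicate 2 or 3). From P3 to P7 and from P7 to P10 edgeR called 0, with an unadjusted p under 0.05 for 2 and 1 (DESeq2 called 1 and 0, limma-voom 0 and 0). Over all 16827 tested genes 2399 and 3406 had such a p, and DESeq2 called 4.34% and 10.9%. In P10 against E17.5 6 were lower and 1 higher, beside 9.50% lower and 8.79% higher of all tested genes. The pathway's median was -0.53 in P3 and -0.56 in P10 against E17.5, beside -0.05 and 0.0 over all tested genes.

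Of 9 genes linked to the function of Hox5 proteins in lung mesenchyme, 1 rose and 2 fell from E17.5 to P3, which is near the share of 25.1% over all tested genes. Bmp4, a growth factor, went from 31.3 ± 2.8 to 63.7 ± 2.82 CPM (1.02, adjusted p = 0.00424), and Axin2, a Wnt target, from 94.3 to 65.3 CPM (-0.53, kept in 11 of 21 alternatives). Eln, the gene of elastin, went from 4001 ± 1068 to 533 ± 124 CPM, then 1569 ± 344 at P7 and 4633 ± 390 at P10 (1.56 from P7 to P10, adjusted p = 0.0132, lost without any single P7 library and without P10 replicate 2 or 3). From P3 to P7 edgeR called 0 of the 9, DESeq2 2 and limma-voom 1, and 4 had an unadjusted p under 0.05 in edgeR's test. Over all 16827 tested genes DESeq2 called 730 and limma-voom 18, and 2399 had such a p. In P10 against E17.5 2 were higher and 3 lower, beside 8.79% higher and 9.50% lower of all tested genes. Wnt2 had a mean of 17.0 CPM at E17.5, carried by replicate 1, which had the highest value of all 12 libraries (38.9 CPM), and 0.252 ± 0.0727 CPM at P10; Lef1 had 45.7 and 30.7 CPM, a call that 6 of 21 alternatives kept. The ParaHox genes, relatives of the Hox genes outside the clusters, were near 0: the 4 in the table (Cdx1, Cdx4, Gsx1 and Gsx2) had at most 1 estimated count in any library and were not tested.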

How the data were processed

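The labels' protocols describe a kit for small amounts of total RNA that keeps strand, and the molecule label says polyadenylated RNA. The build was GRCm38, per the submitters' processing notes. Aligner, quantifier and annotation: not given in the sources used here. Each deposited value is an estimated count per gene that the authors gave as a whole number. They appear scaled by transcript length: low values had a median of 77.5 in genes of 50 to 99 nt and 1 in genes from 1200 nt, so values are not read numbers, and 0 values carry no upper limit here. All 12 columns were matched to a sample by name, with 0 left over.

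CPM were computed with TMM library sizes, and genes tested with edgeR's quasi-likelihood test (R 4.3.3 with edgeR 4.0.16 and limma 3.58.1; filter on low counts by stage, 1 model over 12 libraries, robust fitting, Benjamini-Hochberg adjustment at 0.05 over 16827 genes), which kept 13 of the 29 Hox genes described. Every adjusted p is from this test unless another tool is named, and SE are those of the log2 fold change. The script was tested on simulated data with 200 changed genes. Alternatives were other scalings and filters, DESeq2 1.42.0, limma-voom, a replicate block, 146 small structural RNA genes left out, a fit on the 6 libraries compared, and each library left out. Positions, exon overlaps and lengths are from GENCODE mouse M21; promoters are from RefSeq (GRCm38.p6).

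Members and lists were chosen with earlier results of these data known. A few genes are not reported here and stay out of every member and list count and sum, but not out of the fits. Values per library are given for Hox genes that passed in a comparison, the 5 with the highest mean and the paralogs of the number with the highest sum. From each list up to 4 passing genes per comparison with at least 5 CPM at a stage are named by size of fold change, beside Acta2 and Pdgfra; genes named outside these rules were chosen after their values were seen. The lists were TALE cofactors, Trithorax and Polycomb genes, retinoic acid genes, genes linked to Hox5 function, homeobox genes outside the clusters, transcripts inside the clusters and cell type markers.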

Additional observations from a re-analysis of the deposited data

How the results depend on the processing

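The 13 expressed Hox genes stayed 13 under plain library sizes, thresholds of 0.5 and 2 CPM and each library left out. Counts of Hox genes that passed depended on the setting. With single libraries left out they ran from 2 to 5 in P3 against E17.5 (4 with all libraries), from 0 to 4 in P10 against P7 (2), from 1 to 4 in P10 against E17.5 (4) and from 4 to 9 over the 4 stages (8). Over all tested genes such fits called 2968 to 4305 in P3 against E17.5, 22 to 790 in P10 against P7 and 2016 to 3113 in P10 against E17.5. DESeq2 called 2 Hox genes in P7 against P3 and 6 in P10 against P7, beside 730 and 1841 of all 16827 tested genes. The fit on the 6 libraries compared called 5 Hox genes in P10 against P7 and 1 in P10 against E17.5. It rests on fewer samples, and over all genes it called 617 and 1687. With the replicate number as a block 0 Hox genes passed in P10 against P7, where 310 of all tested genes did, and 4 passed over the 4 stages. The labels do not say whether the replicate numbers pair the samples. Deviations of 18 same-number pairs correlated between -0.195 and 0.136, and 3 were over 0.1. Pairs of different numbers ran from -0.203 to 0.22. With 3 libraries per stage these correlations cannot decide whether the numbers mark a pairing. Of 3106 recomputed values of single genes, 167 lost a call, 31 gained one and 0 called values changed sign, while 71 uncalled values did. The causes were not tested. What depth limits was not tested, since the deposited values are not read numbers; the lowest expressed genes include Hoxb8, at 26 to 129 estimated counts per library.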
